A study of Mus musculus with 12 samples.

Results

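Ribosomal protein genes encode the proteins of the small and large subunits of the cytosolic ribosome. The members were the deposited open chromatin regions that overlap, or lie within 1000 bp of, a protein-coding gene on an autosome whose symbol is Rpl or Rps followed by a number. The annotation held 97 such symbols, of which 6 were not on autosomes and 10 were left out, mainly the Rps6k kinases, so that 81 genes remained. Of these, 75 had a region, and the members were 111 of the 94161 regions in the table. All 111 passed the filter on low values, which removed 4379 regions and left 89782 tested. The 6 genes with no region were Rps23rg1, Rps27rt, Rpl32l, Rpl10l, Rpl39l and Rpl31-ps12, all named as paralogs, retrogenes or pseudogenes. Rpl10l and Rpl39l are known as testis copies of ubiquitous genes.

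ATAC-seq measures accessibility through the Tn5 transposase, which cuts and tags DNA that nucleosomes leave exposed. There were 4 groups of 3 libraries, each library from 10000 cells: marginal zone B cells (MZB) from mice labelled as LSD1 knockouts, MZB from wild-type mice, follicular B cells (FoB) from LSD1 knockouts, and FoB from wild-type mice. MZB sit at the border of the splenic white pulp and respond fast to blood-borne antigen, whereas FoB recirculate through the follicles. LSD1, encoded by Kdm1a, is a demethylase acting on lysines of histone H3. All mice were female C57BL/6J, the organ was the spleen and the cells received no stimulation. MZB were sorted as CD23- CD21hi CD1d+ cells and FoB as CD23+ CD21mid CD1d- cells, both among B220+ cells that lacked Thy1.1, F4/80, CD11b, CD93 and GL7. The sources used here do not give the age of the mice, the cells in which Kdm1a was deleted or the driver of the deletion.

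Recovered reads over the regions ran from 3169966 to 10375328 per library, the deepest being a wild-type FoB library. Levels are reads per region scaled so that all regions of a library sum to 1000000 (rppm), and 3 reads corresponded to 0.289 to 0.946 rppm. Marker genes of the sorted cells went with their labels: of 38 tested regions at 6 MZB marker genes, 22 were higher and 1 lower in wild-type MZB than in wild-type FoB (57.9% and 2.63%), and of 23 regions at 4 FoB marker genes, 0 were higher and 11 lower (47.8%). Over all tested regions 24.2% were higher and 11.4% lower in this comparison. B cell markers had regions at 5 of 5 genes, which summed to 507 to 574 rppm in knockout MZB, 494 to 537 rppm in wild-type MZB, 587 to 610 rppm in knockout FoB and 611 to 652 rppm in wild-type FoB. Myeloid markers had regions at Itgam, Csf1r and Adgre1 and none at Lyz2 or Mpo, and of 18 tested regions 9 were higher and 1 lower in wild-type MZB than in wild-type FoB (50.0% and 5.56%, beside the same 24.2% and 11.4%). They summed to 85.7 to 100 rppm in knockout MZB, 84.2 to 99.4 rppm in wild-type MZB, 43.7 to 49.8 rppm in knockout FoB and 49.4 to 53.9 rppm in wild-type FoB. Plasma cell genes, 4 of 4 with regions, summed to 392 to 430 rppm in MZB libraries and 464 to 492 rppm in FoB libraries. The sums of these 3 lists moved with cell type, and their part in the results below was not tested.

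Some marker sums also differed by genotype without overlap. FoB markers summed to 432 to 474 rppm in knockout FoB and 479 to 500 rppm in wild-type FoB, and 1 of their 23 regions, at Cd55, was lower in the knockout. Its log2 fold changes were -1.11 ± 0.22 in MZB (SE, limma adjusted p = 0.00762) and -0.98 ± 0.22 in FoB (limma adjusted p = 0.0269). The sums of B cell markers were also apart in FoB, as given above, with 0 of 39 tested regions passing. T cell markers, with regions at Cd4 and Cd3d and none at Cd3e, Cd3g, Cd8a or Thy1, summed to 43.5 to 46.3 rppm in knockout FoB and 33.1 to 38.7 rppm in wild-type FoB. NK cell markers, with regions at Klrb1c only, summed to 43.9 to 51.1 rppm in knockout FoB and 33.2 to 35.3 rppm in wild-type FoB. At T cell and NK cell markers 0 regions passed between genotypes. Over all tested regions 0.502% rose and 0.275% fell in knockout MZB, and 0.32% rose and 0.219% fell in knockout FoB. Of the erythroid markers, Klf1 averaged 20.9 ± 3.13 rppm in knockout MZB and 18.2 ± 1.01 rppm in wild-type MZB (SD, n = 3 each). The part of these markers in the genotype results was not tested. The 1 region over Kdm1a, chr4:136601890-136603082, had 18.9 to 29.7 rppm in knockout MZB against 16.5 to 28.4 rppm in wild-type MZB, and 20.5 to 20.6 rppm in knockout FoB against 21.2 to 24.9 rppm in wild-type FoB. The position of the deletion is not known here, so this region does not check the genotype labels.

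A ribosome holds one copy of nearly every one of these proteins, and growing cells make them in matched amounts. In mammals the genes are dispersed over the chromosomes, have compact promoters with few TATA boxes, and share a pyrimidine tract at the transcript start (the terminal oligopyrimidine, or TOP, motif) through which mTOR and Larp1 control their translation. Their promoters are among the constantly open ones of most cells. Naive B cells are small and quiescent, and ribosome production grows when they are activated. Among naive subsets, MZB are known to respond and to become plasmablasts faster than FoB.

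Promoter sequences are shown for the regions at annotated starts that differed most between the cell types, because the promoter is what these regions cover. The sequences are from RefSeq on GRCm38.p6 and hold the 150 bases before the annotated start and the first 30 from it, 5′ to 3′ on the strand of the gene. Capitals mark matches to the motifs described next, including a C followed by 4 or more pyrimidines within 10 bases of the start. The Rpl28 sequence is chr7:4792815-4792994 on the plus strand. The Rps9 sequence is chr7:3703891-3704070 on the plus strand. The Rpl5 sequence is chr5:107900378-107900557 on the plus strand. The Rps15 sequence is chr10:80292281-80292460 on the plus strand. The Rpl23 sequence is chr11:97782410-97782589 on the minus strand.
Rpl28: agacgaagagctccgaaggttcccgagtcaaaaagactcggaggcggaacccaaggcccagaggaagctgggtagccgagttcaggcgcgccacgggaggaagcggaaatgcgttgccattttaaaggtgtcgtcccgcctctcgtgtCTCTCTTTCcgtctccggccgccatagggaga 
Rps9: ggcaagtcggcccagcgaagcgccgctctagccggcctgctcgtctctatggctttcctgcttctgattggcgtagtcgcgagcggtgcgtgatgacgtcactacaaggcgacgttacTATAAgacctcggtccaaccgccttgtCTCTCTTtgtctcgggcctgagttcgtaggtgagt 
Rpl5: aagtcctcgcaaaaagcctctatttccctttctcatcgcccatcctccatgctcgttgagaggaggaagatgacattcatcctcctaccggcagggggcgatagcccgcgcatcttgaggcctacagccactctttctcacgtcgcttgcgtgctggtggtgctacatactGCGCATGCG 
Rps15: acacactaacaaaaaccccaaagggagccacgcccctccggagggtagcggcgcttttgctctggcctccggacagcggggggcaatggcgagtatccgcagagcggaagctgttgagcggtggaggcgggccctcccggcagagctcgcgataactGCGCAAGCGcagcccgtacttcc 
Rpl23: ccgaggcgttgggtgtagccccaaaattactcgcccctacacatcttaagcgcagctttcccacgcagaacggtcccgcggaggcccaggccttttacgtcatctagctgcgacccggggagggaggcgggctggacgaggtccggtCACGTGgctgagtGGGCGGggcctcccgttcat

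A promoter entry was matched by symbol and gene ID for 61 of the 81 genes, with 73 annotated starts, and for 17492 protein-coding genes in all. Each window ran from 250 bases before the start to 50 after it, and a gene counted once if any of its windows held the letters. The feature that set the members furthest apart was the TOP motif. A C at the annotated start followed by at least 4 pyrimidines stood at 14 of the 61 genes (23.0%), against 467 of 17492 genes (2.67%). Within 10 bases of the start such a run was found at 63.9% of the members, against 34.9% of all genes. In the sequences above it is the capital run of Rpl28 and the second capital run of Rps9. The ETS core CCGGAAG, on either strand, stood in 36.1% of the members, against 12.9% of all genes. The YY1 letters AAGATGGC were in 9.84% of the members, against 3.57% of all genes. Closer to the background were the NRF1 letters GCGCANGCG (14.8% of members, 9.63% of all genes), the GC box GGGCGG (55.7% of members, 49.2% of all genes) and the E-box CACGTG (9.84% of members, 8.91% of all genes). TATAA on the gene's strand within 50 bases before the start was found in 8.2% of the members, against 6.55% of all genes, and Rps9 was one of these. Motifs were searched separately, so their matches may overlap. Such matches describe letters in a window and not bound sites. For Rpl30, Rpl36 and Rpl3, to which results below belong, no promoter is shown.

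The regions were wide and highly accessible. Their median width was 683 bp (130 to 2606 bp), against 339 bp over all regions of the table. Their median level over the 12 libraries was 27.6 rppm, against 3.87 rppm over all regions, which is close to the 29.3 rppm of all regions overlapping a promoter window. Per kb of region the medians were 37.4 rppm for the members, 35.4 rppm for promoter window regions and 11.9 rppm for all regions. Of the members, 53 held an annotated start of their gene, and the middle of the region lay a median of 0 bp from it, with 50 of 53 within 250 bp. A further 27 regions belonged to genes without a promoter entry. In all, 91 regions overlapped the gene body and 20 lay outside it. A start of another gene stood inside 22 members, and 33 lay within 1000 bp of another protein-coding gene, so that their signal cannot be assigned to the ribosomal protein gene alone.

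Levels varied widely among the genes. The strongest region of each gene, chosen by rppm and not per kb, had a median of 43.9 rppm per kb. It ran from 5.84 rppm per kb at Rpl37rt to 111.7 rppm per kb at Rpl37. For Rpl41 this choice took a region 34 bp from the gene that holds the Zc3h10 start (60.9 rppm per kb). The region at the Rpl41 start had 72.1 rppm per kb. Rpl37, a large subunit protein, had 103.3, 86.4 and 94.0 rppm in knockout MZB, 96.1, 103.1 and 100.8 rppm in wild-type MZB, 117.5, 128.7 and 131.7 rppm in knockout FoB, and 122.4, 126.6 and 121.8 rppm in wild-type FoB. All 6 FoB libraries lay above all 6 MZB libraries, and within a cell type the genotypes overlapped. Other highly accessible regions were those of Rps27a (89.2 rppm per kb), Rpl13a (86.2), Rpl35 (83.6), Rpl34 (78.4), Rpl15 (78.2), Rpl36 (75.1), Rpl27 (74.6) and Rpl22l1 (74.2 rppm per kb). Rps27a is made as a fusion with ubiquitin, and Rpl22l1 is the paralog that can take the place of Rpl22 in the large subunit. The lowest regions per kb were those of Rpl37rt and Rpl34-ps1 and distal regions of Rpl23, Rpl5 and Rpl3, at 5.84 to 8.56 rppm per kb. Of the 111 regions, 66 averaged at least 20 rppm and 29 averaged under 10 rppm.

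**Figure D1:**
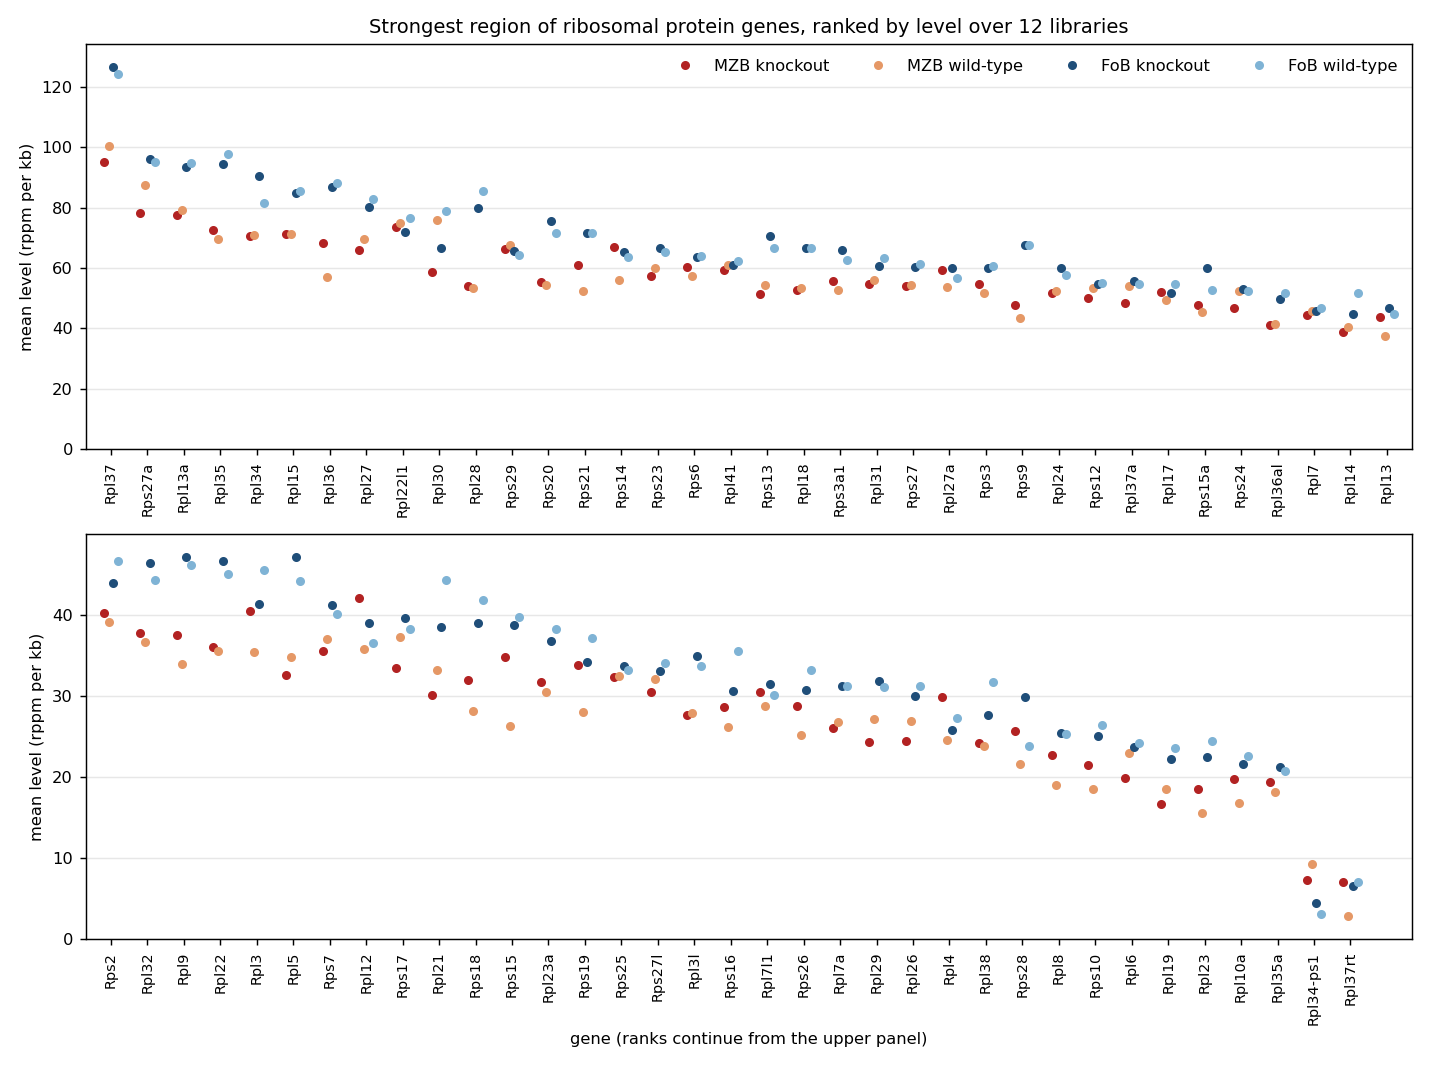
Mean level in rppm per kb (n = 3 libraries per point) of the strongest region by rppm of 71 of the 75 ribosomal protein genes with a region (the other 4 are not shown), ranked by the mean per kb over 12 libraries, with one point for each of the 4 groups. Levels run from 111.7 rppm per kb at Rpl37 to 5.84 at Rpl37rt, and the blue FoB points mostly lie above the red and orange MZB points.

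Between genotypes, few ribosomal protein regions passed the test in MZB. Of 111 regions, 0 rose and 1 fell in knockout MZB against wild-type MZB (limma on log2(rppm + 0.5), Benjamini-Hochberg adjusted p under 0.05 over all tested regions). Over all tested regions 0.502% rose and 0.275% fell. The median log2 fold change was 0.04 for the members and -0.02 for all regions. At an unadjusted p under 0.05 there were 10 members. The 3 libraries of the genotypes did not overlap at 12 of 111 members (10.8%), against 17.7% of all tested regions. Summed over the 111 members the knockout MZB libraries had 3290, 3260 and 3241 rppm and the wild-type MZB libraries 3161, 3296 and 3218 rppm, which overlap.

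The region that fell was that of Rpl30, a large subunit protein that in mammals also binds the elements which direct selenocysteine incorporation. It spans chr15:34442855-34443945 and overlaps the gene. It had 65.3, 60.6 and 65.6 rppm in knockout MZB, against 72.6, 82.9 and 92.7 rppm in wild-type MZB. Every knockout library lay below every wild-type library. The log2 fold change was -0.37 ± 0.09 (SE, limma adjusted p = 0.0333), which is 0.776 of the wild-type level. In FoB the same region had 73.9, 75 and 68.9 rppm in knockout libraries and 86.5, 86.8 and 84.3 rppm in wild-type libraries. The FoB groups did not overlap either, but the log2 fold change of -0.24 ± 0.09 did not pass (limma adjusted p = 0.305). The difference between the effects in MZB and FoB was -0.12 ± 0.12 (limma adjusted p = 0.915). The call in MZB was lost without knockout library 2, knockout library 3, wild-type library 2 or wild-type library 3 (limma adjusted p 0.143, 0.0700, 0.113 and 0.236). It was also lost with TMM scaling (limma adjusted p = 0.0651), in edgeR (0.0552) and in DESeq2 (0.269), while the fold change kept its sign.

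Rpl30 lies beside a stretch of chromosome 15 in which many regions changed with genotype. Within 1 Mb on either side, 80 regions were tested, with 1 higher and 1 lower in knockout MZB, the lower one being the Rpl30 region itself, and 1 higher and 1 lower in knockout FoB. Their median log2 fold change was -0.30 in MZB and -0.22 in FoB, so the Rpl30 value was close to that of its surroundings. From 1 to 5 Mb on the side of rising coordinates, 21 of 215 regions rose and 2 fell in knockout MZB, and 18 rose and 2 fell in knockout FoB. On the other side, from 1 to 5 Mb, 0 of 112 rose and 0 fell in MZB, and 0 rose and 1 fell in FoB, with median log2 fold changes of -0.17 in MZB and -0.09 in FoB.

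**Figure D2:**
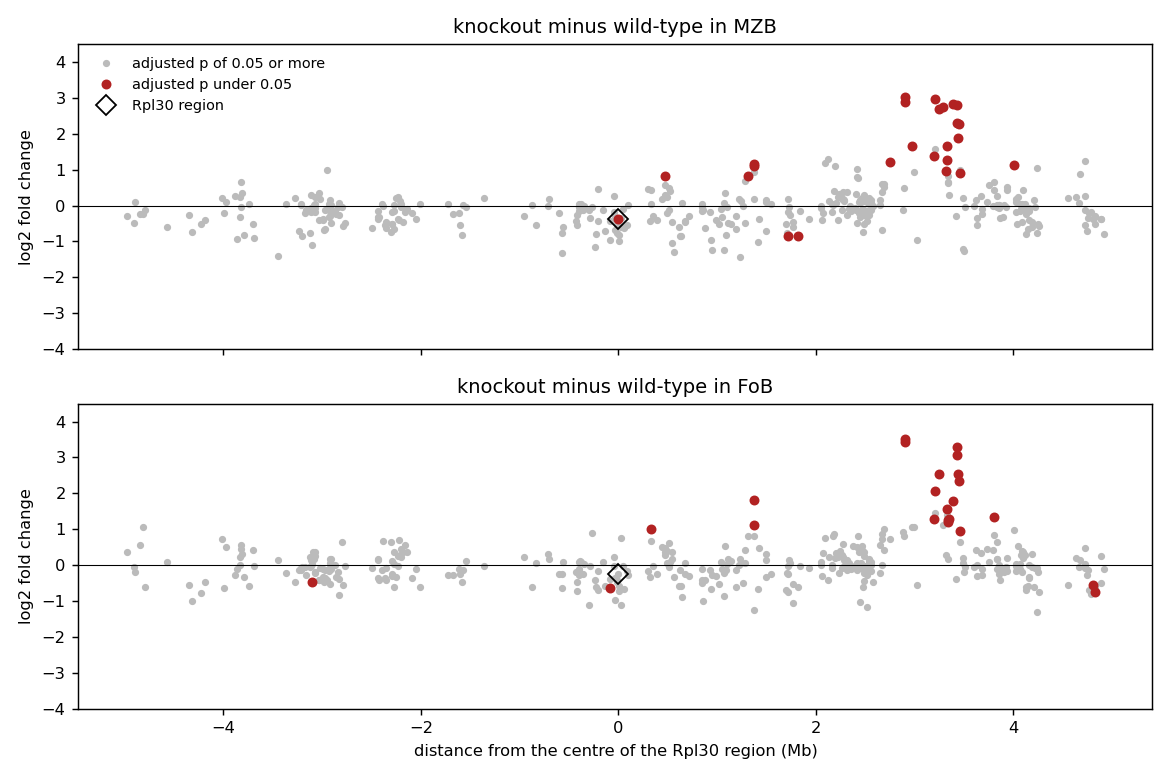
Log2 fold change of knockout over wild-type cells (y axis) for every tested region within 5 Mb of the Rpl30 region (x axis, distance in Mb), in MZB above and FoB below. Red points passed an adjusted p of 0.05 in limma. The Rpl30 region (diamond) lies at -0.37 in MZB and -0.24 in FoB, amid regions with a median of -0.30 in MZB within 1 Mb, and red points gather about 3 Mb away on one side.

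The other members with the smallest p in MZB did not pass. Rps19, a small subunit protein whose human gene is the one most often mutated in Diamond-Blackfan anaemia, has a weak internal region at chr7:24889632-24889803. It had 1.63, 0.946 and 1.18 rppm in knockout MZB, against 5.13, 1.6 and 2.80 rppm in wild-type MZB, on 14 and 34 reads in all. In FoB it had 1.66, 1.65 and 2.54 rppm in knockout libraries and 3.56, 4.05 and 4.78 rppm in wild-type libraries. Knockout libraries overlapped the lowest wild-type library in MZB and lay below all of them in FoB. The log2 fold changes were -0.97 ± 0.34 (SE, limma adjusted p = 0.185) in MZB and -0.93 ± 0.34 (limma adjusted p = 0.316) in FoB. Rps15, a small subunit protein, had 20.5, 20.8 and 18 rppm at its start in knockout MZB, against 15.4, 13.3 and 16.2 rppm in wild-type MZB. Its groups did not overlap, with a log2 fold change of 0.40 ± 0.14 (SE, limma adjusted p = 0.196). Rpl36 had a log2 fold change of 0.25 ± 0.10 (SE, limma adjusted p = 0.252). The largest positive value was 0.82 ± 0.44 at a region of 167 bp in Rpl38 (limma adjusted p = 0.417), where 31 reads in knockout MZB stood against 16 in wild-type MZB.

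In FoB, 0 of 111 members rose and 0 fell in the knockout (limma), and edgeR and DESeq2 likewise called 0. Over all tested regions 0.32% rose and 0.219% fell. At an unadjusted p under 0.05 there were 4 members, and the median log2 fold change was 0.00 for the members and -0.02 for all regions. The libraries of the genotypes did not overlap at 13 of 111 members (11.7%), against 14.7% of all tested regions. The 4 smallest p belonged to Rpl30 and the internal Rps19 region, given above, and to weak regions in Rps20 and Rpl24. Rps20 at chr4:3834918-3835185 had 6.21, 7.21 and 8.39 rppm in knockout FoB and 5.75, 5.78 and 2.63 rppm in wild-type FoB, a log2 fold change of 0.63 ± 0.25 (SE, limma adjusted p = 0.364). Rpl24 at chr16:55969262-55969401 had 4.97, 5.77 and 5.59 rppm in knockout FoB and 6.57, 8.29 and 8.83 rppm in wild-type FoB, a log2 fold change of -0.49 ± 0.21 (limma adjusted p = 0.447). Among the 66 members that averaged at least 20 rppm, the largest change in either direction was that of Rpl30, at -0.24. The standard errors of these 66 had a median of 0.107.

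The genotype effect was not shown to differ between the cell types at any member. Of 111 members, 0 passed the test of the MZB effect minus the FoB effect (limma), against 0.00111% of all tested regions, which is 1 region. At an unadjusted p under 0.05 there were 3 members, and edgeR and DESeq2 called 0. These were the region at the Rps19 start, with a difference of 0.38 ± 0.16, the weak Rps20 region, with -0.82 ± 0.35, and the Rps15 start, with 0.44 ± 0.20 (SE, limma adjusted p 0.776, 0.776 and 0.788). At the Rps15 start the FoB libraries had 27.1, 20 and 19.1 rppm in the knockout and 24.1, 20.9 and 22.7 rppm in wild type, which overlap. Across the 111 members the genotype effects in MZB and FoB, which share no libraries, had the same sign at 54 and a Pearson correlation of 0.32, given as a description since regions in a library share its depth and scaling.

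Cell type, in contrast to genotype, separated the members. In wild-type cells 2 of 111 members were higher and 35 lower in MZB than in FoB (limma), that is 31.5% lower. Over all tested regions 24.2% were higher and 11.4% lower. Among regions overlapping the promoter window of any protein-coding gene, 8.23% were higher and 40.7% lower. The 53 members that overlap a promoter window of their gene had 0 higher and 23 lower (43.4%), close to that share. The median log2 fold change of the members was -0.21, against -0.24 for promoter window regions and 0.18 for all regions. Of the 66 members with at least 20 rppm, 30 were lower (45.5%) and 0 higher, with a median of -0.26. The 5839 other promoter window regions of at least 20 rppm had 54.0% lower and 2.55% higher, with a median of -0.29. The lower share of the members was thus below that of these regions. Of the 29 members under 10 rppm, 0 were lower and 2 higher. Large subunit genes had 20 of 70 regions lower and small subunit genes 15 of 41, with medians of -0.21 for both.

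In knockout cells 2 members were higher and 30 lower in MZB than in FoB (limma), against 23.2% higher and 9.47% lower over all regions, and 8.18% higher and 34.9% lower over promoter window regions. Of the 53 members in promoter windows, 18 were lower (34.0%). The medians were -0.16 for the members, -0.20 for promoter window regions and 0.14 for all regions. The wild-type and knockout comparisons share no libraries, but both come from the same fit, in which a region has the same standard error in both. Their call lists are therefore not from separate tests. Of the lower calls, 21 regions at 19 genes were common to both, which is 60% of the wild-type list and 70% of the knockout list. Across the 111 members the log2 fold changes had the same sign at 95 and a Pearson correlation of 0.725 (n = 111 regions, description only). The overlap, sign agreement and correlation over all regions or promoter window regions were not computed. These values therefore do not set the members apart from other regions. Calls made in one genotype only are not evidence of a difference between genotypes, since 0 members passed the test of that difference.

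Summed over the 111 members, signal was 3290, 3260 and 3241 rppm in knockout MZB, against 3820, 3832 and 3727 rppm in knockout FoB, and 3161, 3296 and 3218 rppm in wild-type MZB, against 3877, 3767 and 3761 rppm in wild-type FoB. Every MZB library lay below every FoB library. Divided by the signal in all promoter window regions, the member sum was 1.08% to 1.11% in MZB libraries and 1.03% to 1.11% in FoB libraries, which overlap. It is a ratio and not a share, since only 53 of the 111 members overlap a promoter window of their own gene. By this ratio the member sum moved between the cell types in step with the sum of promoter window regions.

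How many members pass depends on scaling. TMM scaling moved the median of all regions to 0.03 in wild-type and 0.01 in knockout cells, against 0.18 and 0.14 with the deposited scaling. It raised the lower calls among members to 67 in wild-type and 55 in knockout cells, while all regions split into 19.1% higher and 18.4% lower in wild-type cells and 18.9% and 15.9% in knockout cells. Relative to the median of all regions, the member median was -0.40 in wild-type and -0.30 in knockout cells with the deposited scaling, and -0.42 and -0.32 with TMM. With quantile normalisation it was -0.08 and -0.05, with 27 and 11 members lower. All regions then split into 15.0% higher and 15.4% lower in wild-type cells and 13.6% higher and 12.1% lower in knockout cells. The sign of the member median was negative under each of these scalings.

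**Figure D3:**
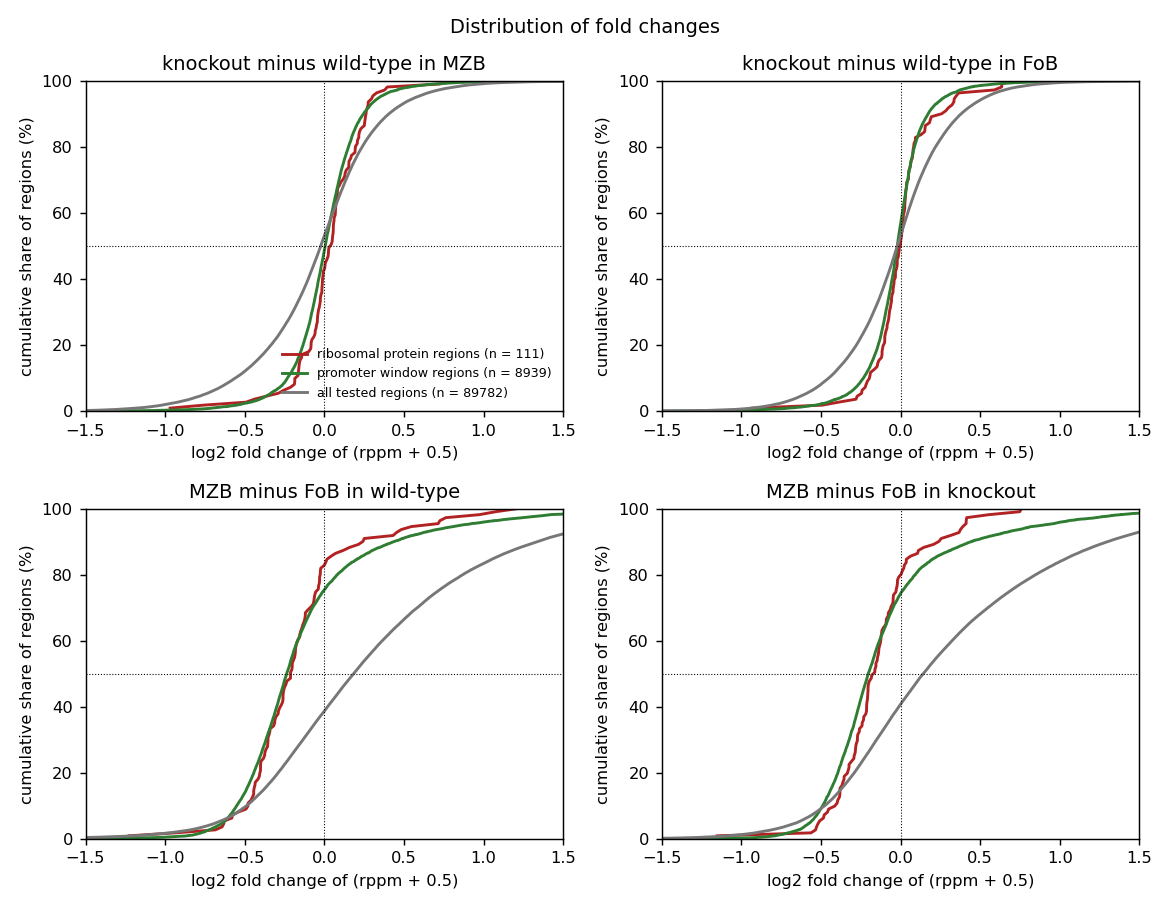
Cumulative share of regions (y axis, percent) by log2 fold change (x axis) for the 111 ribosomal protein regions, 8939 promoter window regions and 89782 tested regions, in the comparisons of genotype (upper panels) and cell type (lower panels). The genotype curves of the members cross 50% near 0, at 0.04 and 0.00, and their cell type curves cross it at -0.21 and -0.16, along with the promoter curves.

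Among regions at annotated starts, Rpl28 had the largest difference. Rpl28, a large subunit protein, had 42.0, 37.2 and 36.9 rppm in knockout MZB, against 58.2, 61.0 and 53.1 rppm in knockout FoB. In wild-type cells it had 32.4, 40.1 and 42.3 rppm in MZB and 61.3, 63.6 and 59.4 rppm in FoB. The cell types did not overlap in either genotype, with log2 fold changes of -0.56 ± 0.10 (SE, limma adjusted p = 5.19e-05) in knockout and -0.68 ± 0.10 (limma adjusted p = 2.12e-06) in wild-type cells. Its start carries the TOP-like run printed above. Rps9, a small subunit protein near the entry of the messenger channel, had 37.1, 35.6 and 43.4 rppm in knockout MZB, against 57.5, 52.7 and 55.2 rppm in knockout FoB. In wild-type cells it had 36.7, 36.4 and 32.6 rppm in MZB and 50.9, 55.4 and 58.5 rppm in FoB. These too were apart in both genotypes, with log2 fold changes of -0.51 ± 0.10 (SE, limma adjusted p = 0.000161) and -0.63 ± 0.10 (limma adjusted p = 6.12e-06).

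Rpl36, a large subunit protein whose region chr17:56609444-56610143 also holds the start of Micos13, had 40.6, 50.5 and 52.0 rppm in knockout MZB, against 61.5, 63.2 and 57.7 rppm in knockout FoB. In wild-type cells it had 37.5, 42.3 and 39.5 rppm in MZB and 66.3, 58.3 and 60.6 rppm in FoB. The log2 fold changes were -0.35 ± 0.10 (SE, limma adjusted p = 0.00593) in knockout and -0.63 ± 0.10 (limma adjusted p = 5.50e-06) in wild-type cells. Its second region, within 1000 bp of Lonp1, was lower too, at -0.48 ± 0.12 (limma adjusted p = 0.00171) in knockout and -0.44 ± 0.12 (0.00402) in wild-type cells. Rpl5, which with the 5S RNA forms a particle that can bind Mdm2, had 39.6, 30.3 and 34.6 rppm in knockout MZB, against 53.4, 47.8 and 50.1 rppm in knockout FoB at its start. The log2 fold change was -0.53 ± 0.11 (SE, limma adjusted p = 0.000156) in knockout and -0.34 ± 0.11 (limma adjusted p = 0.0110) in wild-type cells.

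Rps15 and Rpl23 passed in wild-type cells and missed the threshold in knockout cells. At the Rps15 start the knockout had 20.5, 20.8 and 18 rppm in MZB and 27.1, 20 and 19.1 rppm in FoB, which overlap, and wild type had 15.4, 13.3 and 16.2 rppm in MZB and 24.1, 20.9 and 22.7 rppm in FoB, which do not. The log2 fold changes were -0.14 ± 0.14 (SE, limma adjusted p = 0.498) and -0.58 ± 0.14 (limma adjusted p = 0.00138). Rpl23, a large subunit protein, had 14.2, 14.2 and 18 rppm in knockout MZB, against 18.8, 20.6 and 16.8 rppm in knockout FoB. In wild-type cells it had 10.5, 16.2 and 12.1 rppm in MZB, against 24.4, 17.5 and 19.3 rppm in FoB. The cell types overlapped in the knockout and did not in wild type. Its log2 fold changes were -0.27 ± 0.16 (SE, limma adjusted p = 0.203) and -0.64 ± 0.16 (limma adjusted p = 0.00170). The difference between genotypes did not pass for either gene (limma adjusted p = 0.788 for Rps15 and 0.839 for Rpl23).

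Other regions lower in both genotypes were those of Rpl35, Rpl9, Rpl21, Rps20, Rpl22, Rpl18, Rpl36al, Rpl37, Rps13, Rpl41, Rpl15 and Rps3a1. Their log2 fold changes ran from -0.46 (Rps13) to -0.24 (Rps3a1) in knockout cells and from -0.48 (Rpl35) to -0.25 (Rps3a1) in wild-type cells. Several of these were among the most accessible regions per kb, namely Rpl37, Rpl35 and Rpl15. Rpl22l1, by contrast, had 76.0, 79.5 and 71.8 rppm in knockout MZB, against 70.8, 79.9 and 71.2 rppm in knockout FoB, and its groups overlapped in both genotypes. Its log2 fold changes were 0.04 ± 0.08 and -0.03 ± 0.08 (SE, limma adjusted p = 0.784 in knockout and 0.817 in wild-type cells).

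**Figure D4:**
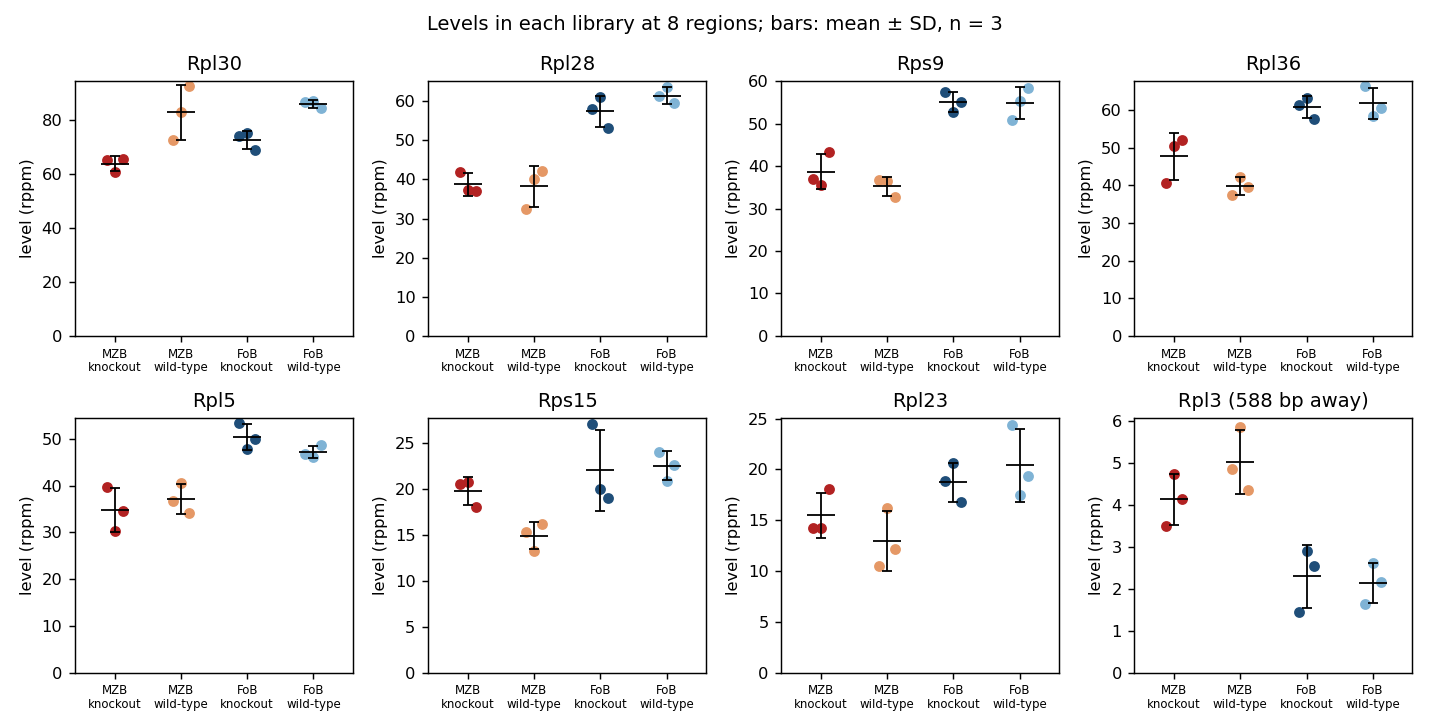
Level in rppm of each library (points) with mean and SD (bars, n = 3) at 8 regions, in knockout and wild-type MZB and FoB. Rpl30 is lower in knockout than in wild-type libraries of both cell types, the other panels but Rpl3 show lower MZB than FoB levels in wild-type cells, and Rpl28 lies at 32.4 to 42.3 rppm in MZB and 53.1 to 63.6 rppm in FoB.

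The few members higher in MZB were weak. A region chr15:80076797-80077193, 588 bp from Rpl3, whose protein reaches towards the peptidyl transferase centre, had 3.50, 4.73 and 4.14 rppm in knockout MZB, against 1.45, 2.88 and 2.54 rppm in knockout FoB. In wild-type cells it had 4.86, 5.85 and 4.35 rppm in MZB and 1.64, 2.60 and 2.15 rppm in FoB, so that the cell types did not overlap in either genotype. The log2 fold changes were 0.76 ± 0.29 (SE, limma adjusted p = 0.0423) in knockout and 1.08 ± 0.29 (limma adjusted p = 0.00359) in wild-type cells. The main Rpl3 region had -0.03 ± 0.12 (limma adjusted p = 0.894) in knockout and -0.36 ± 0.12 (limma adjusted p = 0.0179) in wild-type cells, the opposite sign. Rpl34-ps1, a pseudogene by its name, had a region outside the gene body with 2.97, 3.72 and 2.18 rppm in wild-type MZB and 0.821, 1.16 and 0.955 rppm in wild-type FoB. Its log2 fold change was 1.21 ± 0.34 (SE, limma adjusted p = 0.00557) in wild-type cells, and it did not pass in knockout cells. An internal region of Rpl22, chr4:152332893-152333347, had 5.6, 7.89 and 7.68 rppm in knockout MZB, against 3.93, 4.74 and 3.30 rppm in knockout FoB, with a log2 fold change of 0.75 ± 0.23 (limma adjusted p = 0.0122). This internal region did not pass in wild-type cells. The start region of Rpl22 was lower in MZB, at -0.38 in knockout and -0.34 in wild-type cells. The calls at Rpl3 and Rpl22 in knockout cells were lost when single libraries were left out, with limma adjusted p up to 0.223 for Rpl3 (without knockout FoB library 1) and 0.0609 for Rpl22 (without knockout FoB library 3). The knockout Rpl3 call was also lost with TMM scaling (limma adjusted p = 0.0953) and quantile normalisation (0.491), in edgeR (0.125) and in DESeq2 (0.276). That at Rpl22 was lost with quantile normalisation (limma adjusted p = 0.242), in edgeR (0.0583) and in DESeq2 (0.166). In wild-type cells the Rpl3 call was lost with quantile normalisation (limma adjusted p = 0.0778) and in DESeq2 (0.0564). The Rpl34-ps1 call was lost in the same 2 settings (0.102 and 0.0540).

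**Figure D5:**
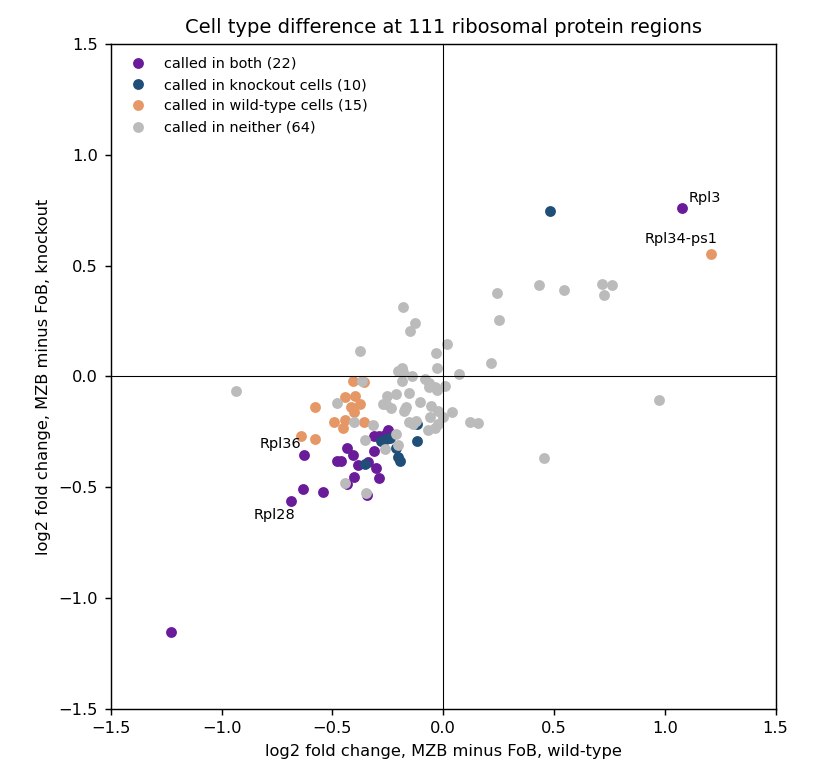
Log2 fold change of MZB over FoB at each of the 111 ribosomal protein regions in wild-type cells (x axis) and knockout cells (y axis), coloured by whether the region passed an adjusted p of 0.05 in limma. Most points lie below 0 on both axes, and 22 regions passed in both genotypes.

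Other genes of protein synthesis gave the following counts for MZB against FoB. Over all tested regions 23.2% were higher and 9.47% lower in knockout cells, and 24.2% and 11.4% in wild-type cells. Over promoter window regions the shares were 8.18% and 34.9% in knockout cells, and 8.23% and 40.7% in wild-type cells. Of 9 regions at ribosomal protein genes without a numbered symbol, 0 were higher and 3 lower in knockout cells, and 0 were higher and 5 lower in wild-type cells. Among those lower in wild-type cells were Rack1 (-0.49), Rplp1 (-0.43), Rplp0 (-0.39) and Rpsa (-0.30), of which Rplp0 and Rplp1 form the stalk that recruits elongation factors. Of 135 regions at mitochondrial ribosomal protein genes, 16 were higher and 28 lower in knockout cells, and 11 were higher and 36 lower in wild-type cells. Ribosome biogenesis genes had 10 higher and 15 lower of 70 regions in knockout cells, and 13 higher and 18 lower in wild-type cells. Translation factor genes had 17 higher and 13 lower of 66 regions in knockout cells, and 17 higher and 18 lower in wild-type cells. The higher calls were 25.8% in both genotypes, near the share of all regions. The lower calls, 19.7% in knockout and 27.3% in wild-type cells, lay between the shares of all regions and of promoter window regions. Genes of growth control, such as Myc, Mtor and Larp1, had 15 higher and 10 lower of 69 regions in knockout cells, and 14 higher and 13 lower in wild-type cells. Their higher calls, 21.7% and 20.3%, were also near the share of all regions. Their lower calls, 14.5% and 18.8%, again lay between the shares of all regions and of promoter window regions. The medians in wild-type cells were -0.36 for the unnumbered ribosomal protein genes, -0.18 for mitochondrial ribosomal proteins, -0.13 for biogenesis, -0.21 for translation factors and 0.02 for growth control, beside -0.21 for the members and 0.18 for all regions.

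Between genotypes these lists had 0 calls in MZB (limma). In FoB, 1 region at Utp20, a factor of small subunit assembly, fell with a log2 fold change of -0.64 ± 0.16 (SE, limma adjusted p = 0.0424). It averaged 7.35 ± 1.90 rppm in knockout and 11.5 ± 0.27 rppm in wild-type FoB (SD, n = 3 each). Also in FoB, 1 region at Eif3h, a subunit of an initiation factor, fell with -0.57 ± 0.14 (limma adjusted p = 0.0452), averaging 11.1 ± 1.79 rppm in knockout and 16.8 ± 2.70 rppm in wild-type libraries (SD, n = 3 each). All other regions of the 5 lists missed the threshold in both genotype comparisons. Over all tested regions 0.502% rose and 0.275% fell in knockout MZB, and 0.32% rose and 0.219% fell in knockout FoB. Summed translation factor signal was apart in FoB, at 1712, 1748 and 1830 rppm in knockout and 1892, 1847 and 1851 rppm in wild-type libraries. Of its 66 regions, 51 had negative and 15 positive log2 fold changes, with a median of -0.11. Over all tested regions 47845 were negative and 41929 positive, and over promoter window regions 5073 and 3866, with medians of -0.02 for both. Mitochondrial ribosomal protein regions also leaned negative (85 against 50), and biogenesis regions did not (35 against 35). The FoB sums of the unnumbered, mitochondrial and biogenesis lists overlapped between genotypes. The reason for the translation factor difference was not tested.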

How the data were processed

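Sorted splenic B cells were assayed by ATAC-seq in 12 libraries, grouped by the cell type and genotype in the labels. The submitters' processing notes name Bowtie 1.1.1, MACS2 and the build mm10. The authors deposited one RPM table over 94161 regions (rppm), in which each column sums to 1000000. The sources used here do not give read filters, peak merging, any Tn5 offset or the coordinate base, and coordinates are printed as deposited. Every value was a whole multiple of one step per library (tolerance 0.01, 100% of values), which gave back the whole reads. Reads are not independent molecules, and depth limits weak regions most.

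Members were assigned with RefSeq tables of GRCm38.p6, the assembly that mm10 denotes, which hold no exons. The members and lists were chosen with earlier results of these data known. limma 3.58.1 (R 4.3.3) fitted 4 group means with a variance trend to log2(rppm + 0.5), which understates changes of low regions, for regions reaching 1 rppm in 3 or more libraries. All p-values are two-sided and, unless called unadjusted, Benjamini-Hochberg adjusted over all tested regions, with a threshold of 0.05, and every p comes from this fit unless edgeR or DESeq2 is named. edgeR 4.0.16 and DESeq2 1.42.0 were run on recovered reads as alternatives. Named regions are, per comparison, all passing members or, beyond 12, the 6 largest changes per direction, the 4 smallest p where fewer than 6 passed and the extreme fold changes, with the 10 highest and 5 lowest levels per kb. Promoters are printed for passing named members that have an entry. The levels given by group for Rpl22l1 were chosen after values were seen. Some regions that this rule names, and the sum of erythroid markers, which was higher in knockout than in wild-type MZB without overlap, are not reported here, but the regions count in all totals. No label ties libraries to separate animals: the p-values then reflect only variation among these libraries, which may be technical.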

Additional observations from a re-analysis of the deposited data

How the results depend on the processing

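For 33 values at named regions, 744 recomputed values kept their sign, and 25 of them missed the threshold that the deposited setting passed. Among members lower in knockout than in wild-type MZB, the count was 1 and became 0 with TMM scaling, in edgeR and in DESeq2, and 0 to 1 with a library left out (0 without library 2 or 3 of knockout or wild-type MZB). With promoter window regions only it was 0 by construction, since Rpl30 has no promoter entry. The other genotype counts stayed at 0 in every alternative run. For MZB against FoB in wild-type cells, the 35 lower members became 67 with TMM, 68 in edgeR, 53 in DESeq2 and 23 of 53 promoter window regions, and 30 to 37 with a library left out. The share of all tested regions that were lower moved as well. It was 11.4% in the main fit, 18.4% with TMM, 19.0% in edgeR, 13.3% in DESeq2 and 9.2% to 11.7% with a library left out. Shares among promoter window regions are not given for these alternatives. The 2 higher members became 0 with a filter at 5 rppm, in DESeq2, with regions in gene bodies only and in promoter windows, 1 with plain symbols only, that is without paralogs, 9 within 3000 bp, and 2 to 5 with a library left out (5 without wild-type MZB library 2, 4 without wild-type FoB library 2). Rpl3 and Rpl34-ps1 have no promoter entry, so neither could count in promoter windows, here or in knockout cells. In knockout cells the 30 lower members became 55 with TMM and in edgeR, 11 with quantile normalisation and 18 of promoter window regions, and 22 to 30 with a library left out. Of all tested regions 9.47% were lower in the main fit, 15.9% with TMM, 16.4% in edgeR and 12.1% with quantile normalisation. With a library left out that share was 7.63% to 9.73%. The 2 higher members became 1 with the filter at 5 rppm, with only the compared groups, with TMM and in gene bodies, 0 in edgeR, in DESeq2 and in promoter windows, 11 within 3000 bp, and 0 to 2 with a library left out (0 without knockout MZB library 2 or 3, 1 without knockout FoB library 1 or 3). Of 37 wild-type and 32 knockout calls, 23 and 13 held with every single library left out, and 11 and 7 in every setting. Smaller memberships hold fewer regions by construction, and for the scalings and tools the cause was not tested.

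With the replicate block, 36 members were lower and 4 higher in wild-type MZB against FoB, 28 lower and 2 higher in knockout MZB against FoB, and 1 lower in knockout against wild-type MZB. The labels do not tie equal numbers to an animal or day, and deviations of same-numbered libraries correlated between -0.093 and 0.134, against -0.209 to 0.195 for other pairs. Weak regions had standard errors of up to 0.436, against a median of 0.107 for members of at least 20 rppm, so that small changes there were not detectable at this depth.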
